A study of Homo sapiens with 8 samples.

Results

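Axon guidance ligands and receptors were followed through RNA-seq and Ribo-seq of SH-SY5Y cells, an established human neuroblastoma line, in which RPS29, a small-subunit ribosomal protein, had been knocked down. The members were taken by symbol: the semaphorins of classes 3 to 7, the plexins, the neuropilins, the ephrins and their EPH receptors, the SLIT ligands and ROBO receptors, the UNC5 receptors, DCC, NTN1 and NTN4. This gave 67 of the 19073 genes listed in either count table, of which 33 encode ligands and 34 receptors. RNA-seq listed 63 of them, Ribo-seq 64 and both assays 60. The knockdown group carried a short hairpin RNA against RPS29 (shRPS29) and the control group a control hairpin (shCONT), with 2 libraries of each per assay. Both groups are SH-SY5Y carrying a hairpin, so cells without a hairpin are not part of the comparison. The number of hairpin sequences, the clonality of the cells and the time between hairpin delivery and harvest were not stated in the labels. Total RNA was sequenced with a stranded kit, and footprints, the fragments protected by ribosomes, came from lysates treated with cycloheximide and RNase I, with monosomes separated by size.

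Axon guidance cues steer growing nerve fibres by attraction or repulsion. Secreted class 3 semaphorins bind neuropilins, which signal through plexins, while membrane-bound semaphorins bind plexins directly. SLIT proteins repel through ROBO receptors, netrins attract through DCC and repel through UNC5 receptors, and membrane-anchored ephrins signal through EPH receptor tyrosine kinases on a neighbouring cell. Most of these receptors act on the actin and microtubule cytoskeleton through small GTPases, and sympathetic neuroblasts, the cells from which neuroblastoma arises, use several of the same cues during migration.

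RPS29 RNA, the target of the hairpin, was at 137 and 160 CPM (counts of a gene relative to the library's total, on a common scale) with the control hairpin and at 7.53 and 6.46 CPM with the hairpin against it. RNA-seq libraries held 17539104 to 19156104 counts and Ribo-seq libraries 2630463 to 4375971. Across genes, libraries ranked alike in RNA-seq, with Spearman correlations of 0.985 to 0.993, and less so in Ribo-seq, with 0.455 to 0.827. Of 9 markers of noradrenergic neuroblastoma cells, 8 reached 1 RNA CPM, and their summed level was 6476 and 6606 CPM in the controls against 6147 and 6254 CPM after knockdown. The defining marker TH, tyrosine hydroxylase, was near 0, at 0.221 CPM or less in every library. Within that sum STMN2 and CHGA fell, by 1.04 and 0.47 on the log2 scale, and ISL1 rose by 0.38 (edgeR adjusted p = 2.51e-07, 5.70e-04 and 0.00130). No marker of Schwann or endothelial cells reached a mean of 1 CPM over the 4 libraries. The markers of mesenchymal cells summed to 308 to 336 CPM in the controls against 330 to 391 CPM after knockdown, with 5 of 7 at 1 CPM or more, and those of blood cells to 6.23 and 7.23 against 10.6 and 14.5 CPM, with CD68 as the only marker of 6 at a mean of 1 CPM. Of the mesenchymal markers COL3A1 and LUM rose, by 0.26 and 0.60, and COL1A1 and PDGFRB fell, by 0.32 and 0.44 (adjusted p below 0.05). Those of epithelial cells summed to 1.36 to 4.75 CPM. The blood cell markers CD68 and CD14 rose, by 0.77 and 1.37, and the epithelial marker CDH1 fell by 3.34 (edgeR adjusted p below 0.05). CD14 had 7 and 12 counts in the controls against 27 and 25 after knockdown, and CDH1 had 11 and 20 against 2 and 1. Whether cells of these kinds had a part in the results below was not tested.

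A total of 57 members reached a mean of 1 RNA CPM, taken as counts over total counts in the 4 RNA-seq libraries. The lowest of them was SEMA6B, a membrane-bound semaphorin, at 1.27 CPM, and the highest under the limit was ROBO4, the ROBO receptor known from blood vessels, at 0.878 CPM. Below it were also EPHB1 at 0.613, SEMA3E at 0.379, EPHB6 at 0.372, EPHA7 at 0.327 and NTN1 at 0.121 CPM. The receptors EPHA1, EPHA3, EPHA4 and EPHA5 were listed in Ribo-seq and not in RNA-seq. The other netrin ligand, NTN4, was at 2.08 CPM. The counts of the netrin receptor DCC came mainly from control replicate 1 and knockdown replicate 2, with 64, 10, 2 and 32 counts in control 1, control 2, knockdown 1 and knockdown 2. Levels of different genes are not set against each other here, because the counts are not per transcript length.

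In RNA-seq, 59 members passed the count filter and were tested. After knockdown 5 of them rose, SEMA3A, SEMA3C, EFNA5, EPHA2 and PLXNA2, and 12 fell, SLIT1, SEMA5B, SEMA6A, SEMA6C, EFNA2, EFNA4, EFNB3, EPHB2, EPHB3, ROBO2, UNC5A and PLXNC1 (edgeR quasi-likelihood test, Benjamini-Hochberg adjusted p below 0.05). The raised share was 8.47% of the members tested, beside 14.4% of the 14723 genes tested in all. The lowered share was 20.3%, beside 16.3% of all genes. Without knockdown replicate 2 the lowered share was 39.0% of members and 19.0% of all genes, with 23 members lower, and the raised share 6.78% and 18.1%. With all libraries the members' lowered share therefore stood close to the background and the raised share below it. In each fit that left out a single library the lowered share was above that of all genes, furthest without knockdown replicate 2. The raised share was below that of all genes in these fits, except without knockdown replicate 1. The median log2 fold change was -0.11 over the members and 0.01 over all genes. Ligands had a median of -0.20, with 3 of 31 higher and 7 lower, and receptors -0.11, with 2 of 28 higher and 5 lower. Both knockdown libraries lay above both controls for 12 members and below them for 24, where 32.3% and 32.9% of all genes did so. The other 42 members were not called, with log2 fold changes from -1.24 in SEMA6B to 1.27 in ROBO4, 28 of them below 0. In RNA from a whole culture, fewer cells carrying an RNA and less of it per cell cannot be told apart.

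**Figure D1:**
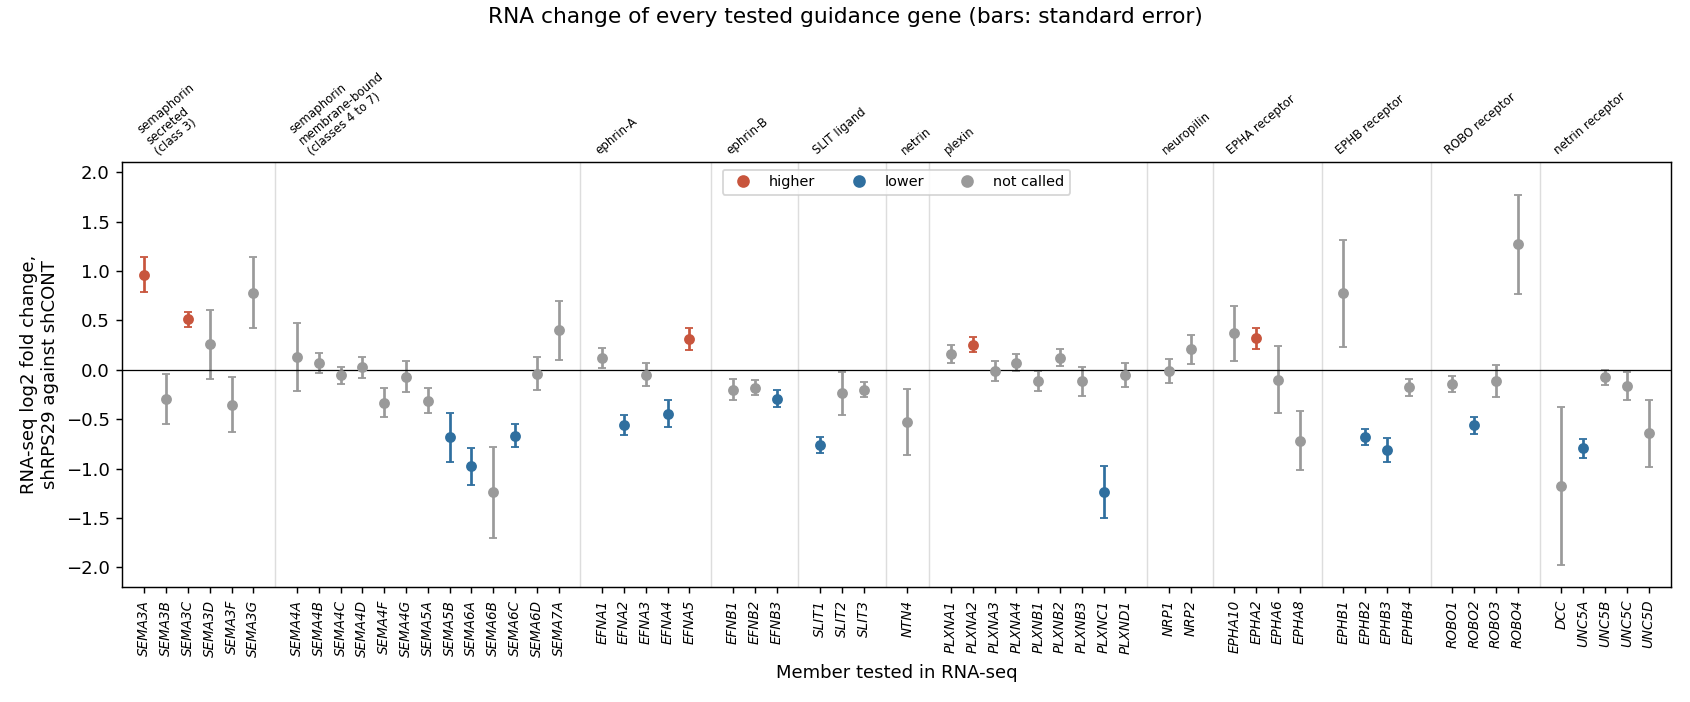
RNA-seq log2 fold change of shRPS29 against shCONT (vertical axis) for each of the 59 members tested, grouped by family; points are fitted changes, bars are standard errors and colour gives the call. The 5 raised members lie between 0.25 and 0.96, the 12 lowered ones between -1.24 and -0.29, and the bars are longest for scarce RNAs such as DCC.

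For 4 of the members whose RNA moved, the 250 bases before the most upstream annotated start are shown. These are the windows in front of the RNAs with the smallest p in SLIT, EPH, UNC5 and class 3 semaphorin genes. Which start these cells use was not tested. They are from RefSeq (GRCh38.p14), 5′ to 3′ on the strand of the gene, in lower case, with capitals marking the GC box GGGCGG or its reverse complement CCGCCC. SLIT1 is at chr10:97185960-97186209 (minus strand), EPHB2 at chr1:22710588-22710837 (plus), UNC5A at chr5:176810309-176810558 (plus) and SEMA3C at chr7:80922390-80922639 (minus).
SLIT1: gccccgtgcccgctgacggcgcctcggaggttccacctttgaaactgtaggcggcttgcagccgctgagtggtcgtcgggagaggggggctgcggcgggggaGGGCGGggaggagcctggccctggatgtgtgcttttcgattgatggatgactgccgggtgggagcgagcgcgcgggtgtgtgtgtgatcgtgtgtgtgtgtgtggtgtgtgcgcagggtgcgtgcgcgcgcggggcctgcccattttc
EPHB2: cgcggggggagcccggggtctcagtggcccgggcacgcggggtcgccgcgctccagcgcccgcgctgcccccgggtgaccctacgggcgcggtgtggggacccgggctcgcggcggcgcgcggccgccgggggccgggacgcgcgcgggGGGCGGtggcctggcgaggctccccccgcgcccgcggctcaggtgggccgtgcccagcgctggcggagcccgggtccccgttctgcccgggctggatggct
UNC5A: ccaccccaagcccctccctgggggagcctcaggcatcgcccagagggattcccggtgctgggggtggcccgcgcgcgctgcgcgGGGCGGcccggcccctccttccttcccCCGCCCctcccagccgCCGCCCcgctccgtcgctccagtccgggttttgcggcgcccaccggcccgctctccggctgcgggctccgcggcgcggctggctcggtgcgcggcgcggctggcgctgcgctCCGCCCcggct
SEMA3C: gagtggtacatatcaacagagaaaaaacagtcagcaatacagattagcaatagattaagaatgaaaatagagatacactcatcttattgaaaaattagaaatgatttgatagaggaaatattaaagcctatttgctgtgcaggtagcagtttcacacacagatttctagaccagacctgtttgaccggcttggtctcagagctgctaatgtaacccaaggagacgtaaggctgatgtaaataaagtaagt
The SLIT1 and EPHB2 windows hold 1 GC box each, the UNC5A window 4 and the SEMA3C window none. Windows were at hand for 58 members and for 15843 of 20056 protein-coding genes. GGGCGG was found on either strand in 43 of the 58 members' windows and in 55.8% of all windows. It was in 8 of 10 windows of lowered members, 3 of 4 of raised members and 27 of 37 of members not called. The E-box CACGTG, which reads the same on both strands and can share 1 base with a GC box, was in 4 of 58 members' windows and in 7.80% of all windows. A match is a description of these letters only.

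Among the secreted class 3 semaphorins, 2 of 6 tested genes rose, and the median log2 fold change of the 6 was 0.38. SEMA3A (chr7:83955777-84492725, GRCh38.p14), which collapses growth cones through NRP1 and class A plexins, had 152 and 118 counts in the controls against 255 and 299 after knockdown. Both knockdown libraries lay well above both controls. Its level went from 7.57 ± 1.41 to 14.8 ± 2.4 CPM (SD, n = 2), a log2 fold change of 0.96 (standard error 0.174, edgeR adjusted p = 7.33e-04). SEMA3C (chr7:80742538-80922389), a ligand that acts through both neuropilins, had 2649 and 2973 counts in the controls against 4171 and 4261 after knockdown, again without overlap. Its level rose by a log2 fold change of 0.51 (standard error 0.0780, edgeR adjusted p = 2.03e-04), from 157 ± 12 to 224 ± 15 CPM (SD, n = 2). The 4 others, SEMA3B, SEMA3D, SEMA3F and SEMA3G, were each below 5 CPM in every library, and their changes from -0.35 to 0.78 were not called. SEMA3E was not tested; its counts were 5 and 0 in the controls against 3 and 19 after knockdown.

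The 13 membrane-bound semaphorins of classes 4 to 7 included 3 that fell and 10 that were not called, with a median log2 fold change of -0.07. SEMA6A (chr5:116443555-116574823), a ligand of PLXNA2 and PLXNA4, had 190 and 181 counts in the controls against 92 and 106 after knockdown. Both knockdown libraries lay far below both controls. The log2 fold change was -0.98 (standard error 0.185, edgeR adjusted p = 0.00106). SEMA6C (chr1:151131685-151146631), of the same class, had 608 and 555 counts in the controls against 363 and 408 after knockdown. It fell by 0.67 on the log2 scale (standard error 0.116, edgeR adjusted p = 5.66e-04), with no overlap between groups. SEMA5B, which carries thrombospondin repeats, fell by 0.68 (standard error 0.245, edgeR adjusted p = 0.0461) from 113 and 95 counts to 61 and 75, and lost its call with DESeq2 and without control replicate 1, control replicate 2 or knockdown replicate 1. The member of these classes with most counts, SEMA4C, had 1159, 1251, 1184 and 1256 counts in control 1, control 2, knockdown 1 and knockdown 2. Its groups overlapped, and its log2 fold change of -0.06 turned to 0.03 without knockdown replicate 1. SEMA6D, whose footprints are described below, had level RNA counts of 148 and 172 against 168 and 160.

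Among the receptors of the semaphorins, 1 of 9 plexins rose, 1 fell, and neither neuropilin was called. PLXNA2 (chr1:208022242-208244384), which pairs with neuropilins for secreted semaphorins and binds SEMA6A directly, had 4430 and 4400 counts in the controls against 5410 and 5672 after knockdown. The groups did not overlap, yet the rise was small, a log2 fold change of 0.25 (standard error 0.0752, edgeR adjusted p = 0.0187), and it was not called without either control library. PLXNC1 (chr12:94148577-94307675), the receptor of SEMA7A, had 110 and 110 counts in the controls against 40 and 58 after knockdown. It fell by 1.24 on the log2 scale (standard error 0.265, edgeR adjusted p = 0.00257), and its span overlaps that of CEP83, so reads of the 2 genes may not be told apart. NRP1, the receptor subunit that binds SEMA3A, had 1196, 1145, 1045 and 1390 counts, with the knockdown libraries on either side of the controls. Its log2 fold change of -0.01 became 0.22 without knockdown replicate 1 and 0.03 without control replicate 1. The other 7 plexins had log2 fold changes from -0.12 in PLXNB3 to 0.16 in PLXNA1, and none was called.

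Ephrins and EPH receptors were called in both directions. EPHB2 (chr1:22710838-22921500), a receptor tyrosine kinase for B-class ephrins, had 1432 and 1390 counts in the controls against 959 and 897 after knockdown. Its level fell from 79.1 ± 2.3 to 49.3 ± 0.25 CPM (SD, n = 2), by 0.68 on the log2 scale (standard error 0.0788, edgeR adjusted p = 1.91e-05). EPHB3 (chr3:184561785-184582408), a receptor of the same class, had 377 and 398 against 241 and 224 counts and fell by 0.81 (standard error 0.120, edgeR adjusted p = 1.55e-04). Both genes had each knockdown library well below each control. EPHB4, the third EPHB receptor above 1 CPM, was at -0.18 and was not called. Of the EPHA receptors, EPHA2 (chr1:16124337-16156069) rose by 0.32 (standard error 0.106, edgeR adjusted p = 0.0320), from 1034 and 989 counts to 1204 and 1451. Most of that difference came from knockdown replicate 2: without it the log2 fold change was 0.13 and not called, and the call was also lost without control replicate 2. EPHA6, EPHA8 and EPHA10 were below 4 CPM in the mean of each group and were not called.

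On the ligand side, EFNA2 (chr19:1284227-1301431), an ephrin held in the membrane by a lipid anchor, had 626 and 584 counts in the controls against 466 and 401 after knockdown. It fell by 0.56 on the log2 scale (standard error 0.103, edgeR adjusted p = 8.65e-04), with no overlap. EFNA4 (chr1:155063740-155069553) had 280 and 263 against 214 and 207 counts and fell by 0.44 (standard error 0.134, edgeR adjusted p = 0.0212). That call was lost with DESeq2 and without either control library, and the gene shares its span with the EFNA4-EFNA3 readthrough gene, which makes its count uncertain. EFNB3 (chr17:7705202-7711372), an ephrin with a transmembrane tail, had 1239 and 1422 counts in the controls against 1159 and 1128 after knockdown. It fell by 0.29 (standard error 0.0850, edgeR adjusted p = 0.0165), a call that was lost without control replicate 2, the higher of the controls. EFNA5 was the only ephrin that rose, by 0.31 (standard error 0.110, edgeR adjusted p = 0.0420), from 415 and 398 to 591 and 477 counts, and it lost its call with DESeq2 and without control replicate 1, control replicate 2 or knockdown replicate 1. The members of these classes with most counts that were not called were EFNB2 at -0.18 and EFNA1 at 0.12.

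Of the SLIT and ROBO genes, 1 of 3 ligands and 1 of 4 receptors fell, and the others were not called. SLIT1 (chr10:96998038-97185959), a repellent for ROBO-bearing axons, had 1092 and 1096 counts in the controls against 702 and 658 after knockdown. It had the smallest p of all members, with a level of 61.3 ± 0.31 CPM in the controls against 36.1 ± 0.24 CPM after knockdown (SD, n = 2) and a log2 fold change of -0.76 (standard error 0.0823, edgeR adjusted p = 1.06e-05). SLIT3, a ligand of the same family, had 9045 and 9091 against 8112 and 8465 counts, without overlap. Its log2 fold change of -0.20 (standard error 0.0763, edgeR adjusted p = 0.0562) was past the threshold with DESeq2, with limma-voom and without knockdown replicate 2. SLIT2 was at -0.24 and not called. ROBO2 (chr3:75906675-77649964), a SLIT receptor, had 923 and 893 counts in the controls against 643 and 651 after knockdown, with no overlap. It fell by 0.56 (standard error 0.0894, edgeR adjusted p = 2.72e-04), while its neighbour on chromosome 3, ROBO1, had 1989, 1869, 1784 and 1890 counts and a change of -0.14 (standard error 0.0825) that was not called.

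Of the netrin receptors, UNC5A (chr5:176810559-176880898), a repulsive receptor that can also signal cell death when no netrin is bound, had 1041 and 1020 counts in the controls against 588 and 660 after knockdown. Both knockdown libraries were clearly lower, and the log2 fold change was -0.80 (standard error 0.0978, edgeR adjusted p = 3.31e-05). Its span overlaps that of HK3, so that a share of its reads may belong to the neighbour. UNC5B, also a netrin receptor, had 7663 and 7672 against 7465 and 7862 counts, with the knockdown libraries on either side of the controls. Its log2 fold change of -0.07 was 0.01 without knockdown replicate 1. UNC5C, UNC5D and DCC had log2 fold changes of -0.16, -0.64 and -1.18 and were not called, DCC with a standard error of 0.800. The ligand NTN4 had 42 and 46 counts in the controls against 30 and 34 after knockdown, a change of -0.53 (standard error 0.334) that was not called.

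**Figure D2:**
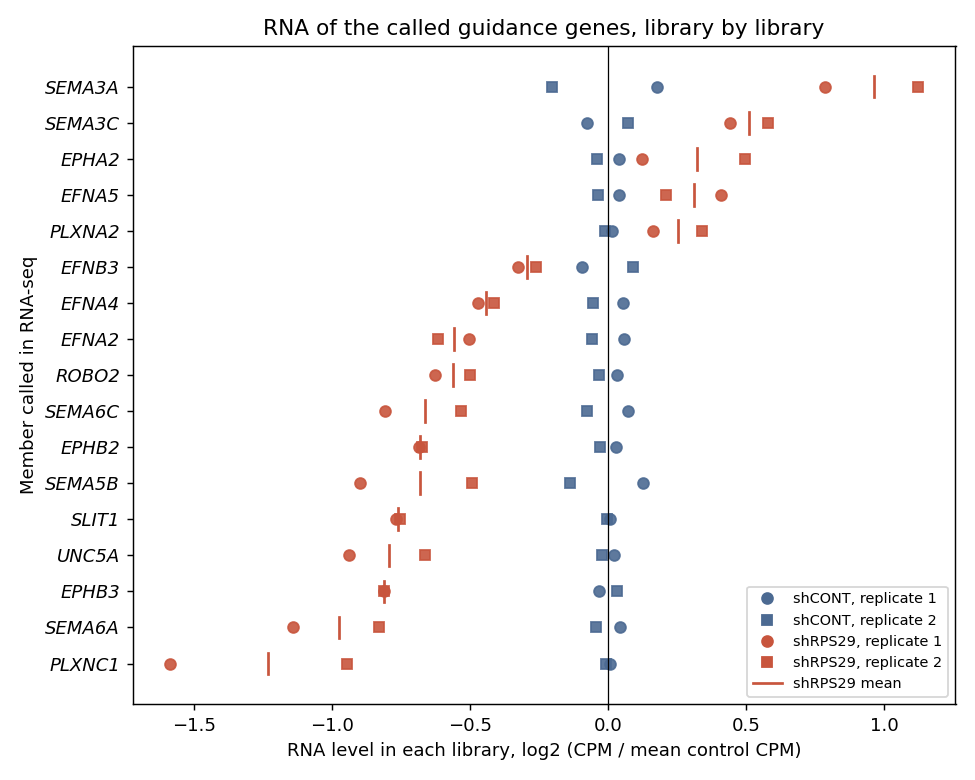
RNA level of the 17 called members in each library (horizontal axis, log2 of CPM over the control mean), with circles for replicate 1, squares for replicate 2, blue for shCONT, red for shRPS29 and a red line at the shRPS29 mean. The libraries of a group lie close together for SLIT1, EPHB2 and EPHB3, and further apart for EPHA2, EFNA5 and PLXNC1.

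The proteins that carry guidance signals were taken from a list of 91 other genes of the pathway, 84 of which were tested in RNA-seq. After knockdown 7 of them rose (8.33%) and 30 fell (35.7%), beside the 14.4% and 16.3% of all genes. Among genes with at least 50 counts in every library, 8 of 78 partners rose and 31 fell, beside 18.2% and 19.7% of all such genes. The list was chosen with earlier results of these data known, so these shares describe the list and test nothing. Their median log2 fold change was -0.10. Among the proteins inside the cell, 7 of 62 rose and 22 fell, and among the other cues, receptors and coreceptors 8 of 22 fell and 14 were not called. RHOA, the small GTPase through which repulsive cues act on actin, had 7949 and 8412 counts in the controls against 3575 and 3408 after knockdown. It fell by 1.30 on the log2 scale (standard error 0.0709, edgeR adjusted p = 3.31e-08), whereas the related GTPases RAC1 and CDC42 were at 0.14 and 0.04 and were not called. SDC2, a heparan sulfate proteoglycan of the cell surface, had 3564 and 3556 against 1704 and 1409 counts and fell by 1.27 (standard error 0.0770, edgeR adjusted p = 7.96e-08).

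The collapsin response mediator proteins bind tubulin downstream of semaphorins, and 4 of the 5 in the list fell. DPYSL5 had 6891 and 6997 counts in the controls against 4521 and 4195 after knockdown, a log2 fold change of -0.75 (standard error 0.0685, edgeR adjusted p = 2.39e-06). DPYSL2 was at -0.48, DPYSL3 at -0.37 and CRMP1 at -0.28, while DPYSL4 was at -0.04 and not called. Of the GTPase-activating proteins that bind the tail of ROBO receptors, SRGAP1 fell by 0.71 and SRGAP2 by 0.51, and SRGAP3 was at -0.38 and not called. The kinase ABL1, which acts downstream of ROBO, fell by 0.81, and the actin regulators EVL and ABLIM1 by 0.63 and 0.56. The raised partners with the smallest p were LIMK1, a kinase that inactivates cofilin, at 0.43 (edgeR adjusted p = 7.07e-04), the RhoA exchange factor ARHGEF28 at 0.69 (0.00288) and the adaptor NCK2 at 0.27 (0.0107). The NCK2 call was lost without either control library.

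**Figure D3:**
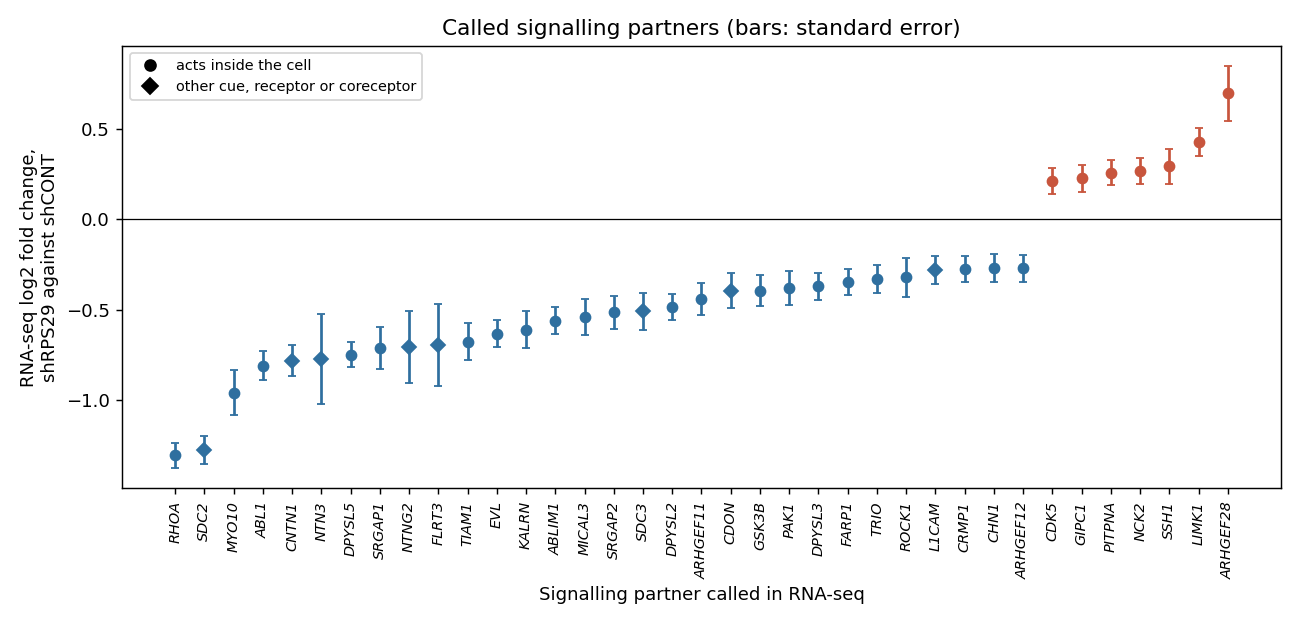
RNA-seq log2 fold change of shRPS29 against shCONT (vertical axis) for the 37 signalling partners called, ordered by change; bars are standard errors, circles are proteins inside the cell and diamonds other cues, receptors and coreceptors. A total of 30 genes lie below 0, led by RHOA at -1.30 and SDC2 at -1.27, and 7 lie above, up to ARHGEF28 at 0.69.

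In Ribo-seq, 49 members at 1 RNA CPM or more were tested, and 6 rose in footprints: DCC, EPHA6, PLXNA4, ROBO1, SEMA6D and UNC5D. This was 12.2% of them, beside 4.86% of the 10406 genes at that RNA level. None was called lower by edgeR, beside 0.673% of those genes, with 1 member lower at an unadjusted p under 0.05 and 0 called by DESeq2. None of the 6 was called in RNA-seq, and none of the 16 members called in RNA-seq and tested in Ribo-seq was called there, SEMA6C not being tested. The median footprint change was 0.14 over the 49 members and -0.11 over all genes at 1 RNA CPM or more. EPHA6 and UNC5D fell short of the count filter in a control library and passed it through their knockdown libraries, where they are high. Their calls therefore rest on the libraries that let them into the test, and the share and median of the members include them. The error was far wider than in RNA-seq, with a median standard error over all genes of 0.738 against 0.108, so a change of the size seen in SLIT1 or EPHB3 RNA was not detectable in footprints at this depth and spread.

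The 6 genes share a large span on the genome, a property that the choice of members did not use. Their spans ran from 525 to 1196 kb, with a median of 769 kb, and the 43 members at that RNA level that were not called had a median of 55.2 kb. At a limit of 300 kb, chosen after the values were seen, 6 of 12 longer members rose, with a median change of 1.90. Of 37 shorter members, 0 were called higher by edgeR and 0 by DESeq2, with 5 higher at an unadjusted p under 0.05, and their median change was -0.04. The same held for genes of any function: 33.4% of 530 longer genes rose, with a median of 1.63, and 3.34% of 9830 shorter ones, with a median of -0.17. Across the 49 members, Spearman's rho between span and footprint change was 0.685, and across 10360 genes it was 0.473. These points come from the same 4 libraries. The RNA change did not rank with span, with a rho of -0.0479 over the 59 members.

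**Figure D4:**
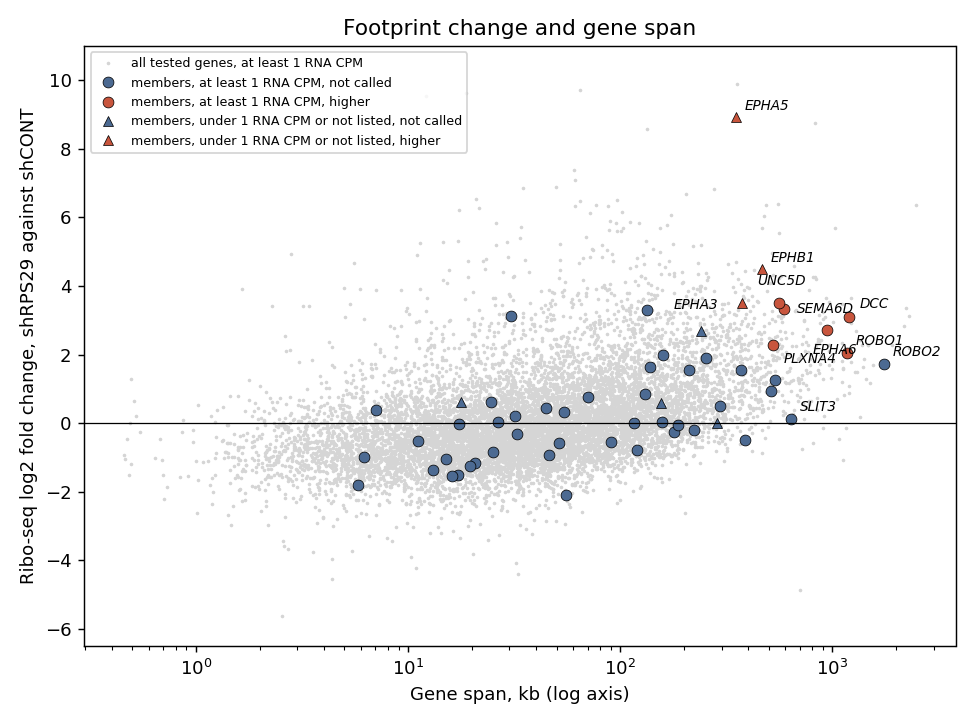
Ribo-seq log2 fold change of shRPS29 against shCONT (vertical axis) against gene span in kb (horizontal log axis) for all tested genes at 1 RNA CPM or more (grey) and for the members; circles are members at 1 RNA CPM or more, triangles those under it or not listed in RNA-seq, and red marks a call. The red points lie at spans of 351 kb or more, where the grey points also sit higher.

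Long genes with almost no RNA gave a rate to set beside these counts. The rate came from 656 other genes of at least 100 kb, listed in Ribo-seq and under 1 RNA CPM or not listed in RNA-seq. Long genes with too few footprints to be listed are not in the rate, so it may be too high. Genes with a miRNA, snoRNA or tRNA gene inside their span were left out of it, whereas DCC and ROBO1 hold such a gene. The median footprint count per 100 kb was 5.12 and 2.81 with shCONT and 27.1 and 20.1 with shRPS29. Multiplied by a member's span, this rate gives a count to set beside the member's own.

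For DCC, a span of 1196 kb gives 61.2 and 33.5 footprints in the controls against 324 and 240 after knockdown, and 43 and 32 against 357 and 186 were counted. Its log2 fold change was 3.11 (standard error 0.655, edgeR adjusted p = 0.00748) on the scarce RNA described above. SEMA6D, a ligand of PLXNA1, had 18 and 19 footprints in the controls against 176 and 159 after knockdown, where its span gives 30.2 and 16.6 against 160 and 119. UNC5D had 16 and 4 against 121 and 76, where its span gives 28.7 and 15.7 against 152 and 113. In the knockdown the counted values lay above the given ones in SEMA6D and below them in UNC5D. DCC was above in knockdown replicate 1 and below in knockdown replicate 2. In the controls UNC5D was further below. SEMA6D was called with a log2 fold change of 3.33 (standard error 0.625, edgeR adjusted p = 0.00394) and UNC5D with 3.51 (standard error 0.772, adjusted p = 0.00952).

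EPHA6, an EPH receptor at 2.77 RNA CPM, had 9 and 52 footprints in the controls against 230 and 104 after knockdown, where its span gives 48.5 and 26.6 against 256 and 190. ROBO1 had 79 and 83 against 352 and 231, where its span gives 59.9 and 32.8 in the controls against 317 and 235 after knockdown. For both, the knockdown counts were close to or below what the span gives. Their log2 fold changes were 2.71 (standard error 0.780, edgeR adjusted p = 0.0395) and 2.06 (standard error 0.596, adjusted p = 0.0401). PLXNA4, a plexin that binds SEMA6A and, with NRP1, SEMA3A, stood apart from these. It had 583 and 264 footprints in the controls against 1914 and 1718 after knockdown, where its span of 525 kb gives 26.9, 14.7, 142 and 105.5. Its log2 fold change was 2.27 (standard error 0.662, edgeR adjusted p = 0.0418), and its RNA was level, with 2770 and 2781 against 2906 and 3227 counts.

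Each of the 6 calls was lost in some fit that left out 1 library, although every fitted change stayed positive. The log2 fold changes in those fits ran from 2.06 to 3.64 in DCC, 2.84 to 3.63 in SEMA6D, 2.67 to 4.74 in UNC5D, 1.51 to 4.41 in EPHA6, 1.26 to 2.51 in ROBO1 and 1.76 to 2.89 in PLXNA4. DCC and ROBO1 lost theirs without either control or knockdown replicate 1, SEMA6D without either control, UNC5D without control replicate 2 or knockdown replicate 1, EPHA6 without control replicate 1 or either knockdown replicate, and PLXNA4 without any of the 4. EPHA6 was also not called with RLE size factors or with scaling over genes at 10 RNA CPM or more. Whether reads that scale with gene span had a part in these changes was not tested.

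**Figure D5:**
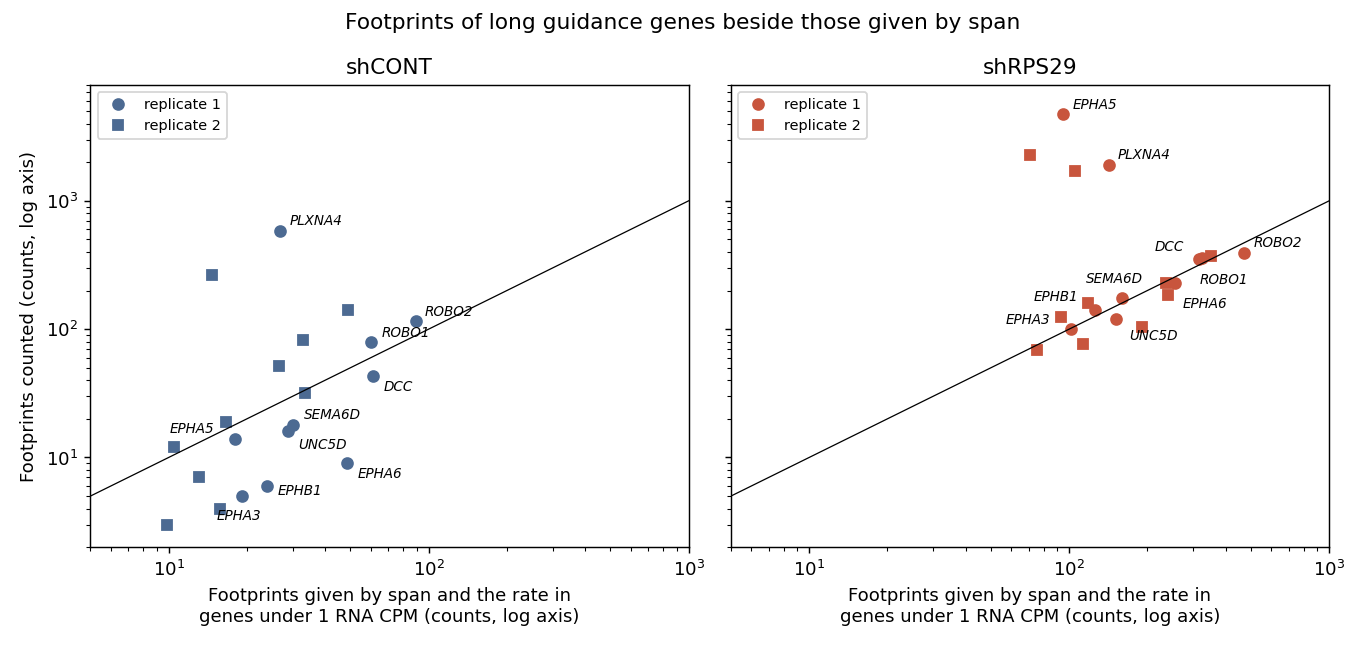
Footprints counted (vertical log axis) against the footprints given by gene span at the rate of long genes under 1 RNA CPM (horizontal log axis), for the 9 members called in Ribo-seq and ROBO2, in shCONT (left) and shRPS29 (right); circles are replicate 1, squares replicate 2, and the line marks equal values. In the knockdown, PLXNA4 and EPHA5 lie far above the line, with 1914 and 4724 footprints in replicate 1, and the other 8 genes lie near it.

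Ligands and receptors whose RNA moved did not show a called change in footprints. SLIT1 had 91 and 101 footprints in the controls against 107 and 49 after knockdown, a log2 fold change of -0.04 (standard error 0.63). SEMA3C had 128 and 165 against 86 and 155, at -0.24 (standard error 0.53), and the groups overlapped. EPHB2 had 33 and 35 against 102 and 74, at 1.56 (edgeR adjusted p = 0.136), where its span gives 57.0 and 42.3 in the knockdown. SLIT3 had 1073 and 1173 against 680 and 1837 footprints, with the knockdown libraries on either side of the controls. SEMA3A was at 1.28 and UNC5A at 0.77, neither called. PLXNC1, whose RNA fell most among the called members, had 11 and 16 against 56 and 37, at 1.98 (edgeR adjusted p = 0.141). Its span gives 43.1 and 31.9 in the knockdown. SEMA6A was at 0.85, also against its RNA, whereas EFNA2, EFNA4, EFNB3, EPHB3 and SEMA5B were below 0 in both assays. None of these was called in footprints. A total of 10 members hold a small RNA gene inside their span, among them SLIT2, SLIT3, EPHB2, DCC and ROBO1, so a count there may include reads of that RNA.

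In control cells the footprint level relative to RNA differed widely among the 39 members at 10 RNA CPM or more, with medians of the ratio of CPM values of 0.377 and 0.318 in control replicates 1 and 2. EFNB3 was low in both, at 0.0959 and 0.0685, as was EPHB4, the receptor of EFNB2, at 0.165 and 0.125. EPHB2 was at 0.144 in each. At the other end, among others, UNC5C was at 1.32 and 0.851, SLIT2 at 2.25 and 0.889 and SEMA3A at 3.21 and 1.26. SEMA3A held 78 and 26 control footprints, beside 27.5 and 15.1 given by its span of 537 kb. The ratio of SEMA6C, 0.0103 and 0.361, shows how far the control libraries parted on a scarce footprint count, of 1 and 35.

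Translational efficiency, the footprint change relative to the RNA change, was tested in 49 members at 1 RNA CPM or more, as the interaction of assay and condition in edgeR. It rose in SEMA6D and ROBO2, 2 members beside 2.98% of all genes at that level and 3.01% of all genes tested, which is near those shares. Both genes are long, and the share of long genes called by this test was not computed. None was called lower by edgeR, beside 0.894% and 0.873%, with 3 members lower at an unadjusted p under 0.05 and 0 called by DESeq2. In ROBO2, RNA fell from 923 and 893 to 643 and 651 counts, while footprints went from 115 and 140 to 395 and 369, where its span of 1743 kb gives 472 and 350 in the knockdown. The log2 change of the ratio was 2.43 (standard error 0.434, edgeR adjusted p = 0.0338), and the footprint change alone, 1.74, was not called (adjusted p = 0.0659). In SEMA6D it was 3.50 (standard error 0.555, adjusted p = 0.0300). Both calls were lost without either control library and without knockdown replicate 1. In these 2 genes the standard error of the ratio was below that of the footprint change alone, which was 0.563 in ROBO2 and 0.625 in SEMA6D, so their p-values need caution.

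Footprints of members under 1 RNA CPM or not listed in RNA-seq are treated as background, so the counts are given first and the fitted values only for the record of calls. EPHA5, an EPHA receptor known from the nervous system, had 14 and 3 in the controls against 4724 and 2273 after knockdown, far beyond the 95.0 and 70.5 that its span of 351 kb gives. The fitted log2 fold change was 8.94 (standard error 1.07, edgeR adjusted p = 2.65e-04). EPHB1 had 6 and 7 against 140 and 125, with 126 and 93.4 given by its span, and EPHA3 had 5 and 12 against 100 and 69, with 101 and 75.2 given. These 3 were called, which makes 9 of 56 members tested (16.1%). Of all genes tested in Ribo-seq, 7.96% were called higher and 0.607% lower. All 3 fell short of the count filter in a control library and passed it through their knockdown libraries, where they are high. Their calls therefore rest on the libraries that let them into the test, and EPHB1 entered the RNA-seq test in the same way. EPHA3 lost its call without control replicate 1 or knockdown replicate 1. EPHB1 was also called in translational efficiency, at 3.86 (standard error 0.765, edgeR adjusted p = 0.0382), on 7 and 9 RNA counts in the controls against 15 and 14 after knockdown. That call was lost when any single replicate was left out and with no filter on low counts. EPHA4, with 33 and 29 against 47 and 35 footprints, and EPHA1, with 23 and 29 against 32 and 43, were not called. NTN1 had 3 and 4 against 19 and 25 footprints and was not called, and SEMA3E and EPHA7 held at most 20 in any library. EPHB6 and ROBO4 were listed in RNA-seq only, as was SEMA3G, which has RNA above the limit.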

How the data were processed

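The authors deposited raw counts, whole numbers listed by gene symbol, for RNA-seq and Ribo-seq separately. The submitters' processing notes name build hg38 and the tools STAR, Bowtie2, Salmon, featureCounts and Trim Galore. Not given in the sources used here are their versions and roles, the annotation, the strand setting and the features counted in each assay, so intronic reads may be part of either table. Every listed gene has a total of at least 3 counts.

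Each assay was fitted over all its genes with the quasi-likelihood test of edgeR 4.0.16 in R 4.3.3 (TMM scaling, filterByExpr, Benjamini-Hochberg adjustment, adjusted p below 0.05 called), with 2 libraries per group. Standard errors are the absolute log2 fold change over the square root of F. Printed CPM of a library uses the TMM factors, while RNA classes, marker sums and the rate by span use total counts or raw counts. Translational efficiency was the assay-by-condition interaction over 8 libraries. The scripts were tested on simulated data. The labels do not say that the libraries of a group came from separate cultures, so p-values measure the spread between these libraries, which may be technical. Same-numbered libraries deviated from their group means with correlations of -0.084 in RNA-seq and 0.114 in Ribo-seq, so the numbers were not taken as pairs.

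The members, the list of signalling partners and the marker lists were chosen with earlier results of these data known. Named genes are every member at 1 RNA CPM or more called in RNA-seq, with each library's value for the 14 with the smallest p, the member of each family with the highest RNA CPM, every member called in Ribo-seq or translational efficiency, the 3 members under 1 RNA CPM or not listed with most footprints, and the 3 partners with the smallest p in each direction. Other genes named, the 300 kb limit and the rate per 100 kb were chosen after their values were seen. Positions, spans and promoter windows are from the RefSeq tables of GRCh38.p14, which gave a position for all 67 members. Alternatives were RLE size factors, DESeq2 1.42.0, limma-voom (limma 3.58.1, RNA-seq), no count filter, at least 50 counts in every library, scaling over genes at 10 RNA CPM or more and a 10 CPM minimum (footprints), the replicate number as a block, and leaving out each library.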

Additional observations from a re-analysis of the deposited data

Results flagged for a closer look

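In 2 of 49 members at 1 RNA CPM or more, the change in footprints differed from that in RNA by the interaction test of edgeR. Of all genes at that level, 2.98% were called higher and 0.894% lower by the same test, so the 2 members stand near the share of all genes. Both genes span more than 300 kb, and the share of genes that long called by this test was not computed. In ROBO2 the footprint change exceeded the RNA change by 2.43 on the log2 scale (adjusted p = 0.0338), and in SEMA6D by 3.50 (adjusted p = 0.0300). Each had both knockdown footprint counts above both control counts, 395 and 369 against 115 and 140 in ROBO2 and 176 and 159 against 18 and 19 in SEMA6D. In the knockdown the span gives 472 and 350 footprints for ROBO2 and 160 and 119 for SEMA6D, at the rate described above. Leaving out 1 library gave values of 1.85 to 2.84 in ROBO2 and 2.94 to 3.89 in SEMA6D, and the calls were lost without either control library and without knockdown replicate 1.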

How the results depend on the processing

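In RNA-seq, RLE size factors, no filter on low counts, a minimum of 50 counts per library and limma-voom moved no count of called members by more than 1.5 times. In Ribo-seq the minimum of 50 counts left DCC, EPHA6, SEMA6D and UNC5D untested, all of them called higher in the main fit. DESeq2 called 4 partners higher in RNA-seq in place of 7, where it called 10.8% of all genes higher. In translational efficiency it called 9 members higher in place of 2. The share of all genes called in Ribo-seq or translational efficiency was not computed for DESeq2 or for any other alternative. The counts of members in these assays, here and below, therefore cannot be set beside it and describe the members only. Without single libraries, members called in RNA-seq numbered 2 to 10 higher (main 5) and 10 to 23 lower (main 12), partners 2 to 13 higher and 22 to 34 lower, all genes 1222 to 2729 higher (main 2126) and 1492 to 2866 lower (main 2396), members higher in Ribo-seq 1 to 5 (main 6) and in translational efficiency 0 to 4. With a 10 RNA CPM minimum, 2 members were higher in Ribo-seq and 1 in translational efficiency. Scaling over genes at 10 RNA CPM or more moved the median footprint change of all genes from 0.04 to 0.30 and called 6 members. With the replicate number as a block, a fit made although the numbers do not pair the libraries, 3 members were higher in RNA-seq and 0 in translational efficiency, and PLXNA2, EFNA5, SEMA5B, SEMA6D, ROBO2 and EPHB1 lost a call.

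Of 17 members called in RNA-seq, 11 kept their call under every alternative run for them: SLIT1, EPHB2, UNC5A, EPHB3, SEMA3C, ROBO2, SEMA6C, SEMA3A, EFNA2, SEMA6A and PLXNC1, which was not tested at a minimum of 50 counts. EPHA5 and EPHB1, which passed the count filter of the main fit through their knockdown libraries, kept theirs in Ribo-seq. Direction turned in 3 genes near 0: without single libraries UNC5B ran from -0.16 to 0.00996, NRP1 from -0.29 to 0.22, with 0.03 without control replicate 1, and SEMA4C from -0.15 to 0.0339. Most members held under 100 footprints in each control library, and the median standard error of all genes was 0.738 in Ribo-seq and 0.108 in RNA-seq.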
